A study of Mus musculus with 9 samples.

Results

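Bone morphogenetic proteins (BMPs) are secreted ligands that bind pairs of type I and type II receptor kinases. The type I receptor phosphorylates Smad1, Smad5 and Smad9, which enter the nucleus with a common partner Smad and bind DNA. Among their direct targets are the Id genes, whose proteins bind other basic helix-loop-helix factors and keep them off DNA, and Smad6, which feeds back to inhibit the pathway. In marrow stroma the pathway is known for its part in the bone and fat lineages.

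The genes described here are 10 members of that pathway: the receptors Bmpr1a and Bmpr2, the Smads Smad1, Smad5, Smad9 and Smad6, and the targets Id1, Id2, Id3 and Id4. They were chosen by symbol, as probe sets that the array's annotation pairs with that symbol alone. Each of the 10 genes had 1 such probe set, among 21789 probe sets with 1 symbol for 19938 genes, and no filter on low values removed any of them.

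The RNA came from CXCL12-abundant reticular (CAR) cells, marrow stromal cells that make the chemokine Cxcl12 and support stem cells and B cell precursors. All mice were Cxcl12+/gfp, with green fluorescent protein in 1 Cxcl12 allele, and the sort took lineage-negative cells with bright fluorescence. Mice had received granulocyte colony-stimulating factor (G-CSF, 250 µg/kg per day, 5 arrays) or phosphate-buffered saline (PBS, 4 arrays) for 5 days. Age, sex and strain are not given in the sources used here, nor whether an array holds 1 animal or a pool, so the p-values cover only the spread among the 9 arrays. The source names of all 9 samples name pre-B colonies, and those of 4 G-CSF samples name an Hspa9 genotype, against titles and protocols that describe CAR cells. Groups follow the titles.

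Values are log2 RMA intensities of Mouse Gene 1.0 ST arrays, and a change is the difference, G-CSF minus PBS, in a limma fit over all 21789 probe sets. The threshold for a change was 0.05 for the p adjusted by Benjamini-Hochberg. Levels of different genes are not set against each other, because probe sets differ in how brightly they hybridise.

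The sorted cells carried the markers of their label: Cxcl12 averaged 11.99 ± 0.07 in G-CSF arrays and 12.35 ± 0.11 in PBS arrays, and Lepr, the leptin receptor, 11.33 ± 0.26 and 11.55 ± 0.21 (SD, n = 5 and 4). The 10 CAR cell markers had a summed linear intensity of 13053.9 to 14197.4 in G-CSF arrays and 19180.3 to 21456.6 in PBS arrays. Of the 10, 5 fell: Adipoq (change -1.69), Vcam1 (-1.07), Ebf1 (-0.91), Kitl (-0.74) and Ebf3 (-0.66). Cxcl12 was not called (-0.36, adjusted p = 0.287 in limma), though all its G-CSF arrays lay below all PBS arrays. The summed intensity of 8 erythroid markers was 197.2 to 247.2 in G-CSF and 278.8 to 827.1 in PBS, with 2 of 8 fallen (Car1 and Rhag). For 9 B cell markers it was 195.2 to 268 in G-CSF and 287.2 to 430.7 in PBS, with 2 of 9 fallen (Cd79a and Ms4a1). Some of these calls were at low values. Cd79a (3.38 in G-CSF, 4.46 in PBS), Ms4a1 (3.38 and 4.07) and Rhag (2.57 and 3.82) averaged below the array medians of tested probe sets (5.36 to 5.48). Smooth muscle and pericyte markers summed to 1206 to 1468.3 in G-CSF and 878.8 to 962.3 in PBS, with 2 of 12 risen (Acta2 and Rgs4). Osteoblast markers summed to 3419.5 to 3924.4 in G-CSF and 4506.6 to 6119.1 in PBS, with 1 of 6 risen (Col1a1, 1.36) and 1 fallen (Phex, -2.07). That sum rested mostly on Ibsp, which averaged 11.57 in G-CSF and 12.08 in PBS and was not called (adjusted p = 0.150 in limma). At an unadjusted p under 0.05 in limma, 4 of the 6 were lower and 1 higher. The sums of the other 4 lists overlapped between the groups. They were 13662.8 to 21680.7 in G-CSF and 7852.5 to 19637.4 in PBS for 12 neutrophil markers (1 risen, Mmp9). The highest PBS sum was that of replicate 2, and PBS replicates 1, 3 and 4 (8968.5, 8226.3 and 7852.5) lay below every G-CSF array. At an unadjusted p under 0.05 in limma, 8 of the 12 were higher and 0 lower, with a list median of 0.92. The 2 brightest, S100a8 and S100a9, averaged 12.51 and 12.18 in G-CSF and 11.66 and 11.51 in PBS. For 9 macrophage markers the sums were 464.1 to 623 in G-CSF and 400.1 to 676 in PBS, and 0 were called. At an unadjusted p under 0.05 in limma, 3 of the 9 were lower (C1qb, Mertk and Mrc1) and 1 higher (Itgam). The list median was -0.36. For 14 endothelial markers the sums were 413.8 to 496.9 in G-CSF and 417.7 to 503.4 in PBS. For 11 cell cycle genes the sums were 525 to 1001 in G-CSF and 603.4 to 832.3 in PBS. RMA values give no detection call, so no marker can be called absent.

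On the first principal component (34.9% of the variance) the arrays fell into a set of 5 (G-CSF replicates 1 to 3 with PBS replicates 1 and 2, set 1) and a set of 4 (G-CSF replicates 4 and 5 with PBS replicates 3 and 4, set 2). PBS replicate 3 lay farthest out, at 56.5, and the next farthest was PBS replicate 1, on the other side at -30.3. The labels name no batch that matches these sets, so values within each set are given beside the results. The sets were drawn from the same values that were tested. A fit with the set as a block can therefore give p-values that are too small, and it called 598 probe sets, against 353 without the block.

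None of the 10 genes changed at adjusted p under 0.05 in limma, where 1.62% of all probe sets did (353 of 21789, with 0.877% lower and 0.743% higher). At an unadjusted p under 0.05, 3 of the 10 were lower after G-CSF and 0 higher, against 4.81% and 4.41% of all probe sets. These 3 were Id1, Smad6 and Id4. In 2 of the 10 (Id1 and Id4), all G-CSF arrays lay below all PBS arrays, as they did for 2.46% of all probe sets, and in 0 they all lay above (2.18% of all probe sets). The median change of the 10 was -0.15, against 0.01 for all probe sets, with 8 lower and 2 higher (Smad1 and Id2). Fewer cells of a type and less RNA per cell cannot be told apart in such bulk samples.

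**Figure D1:**
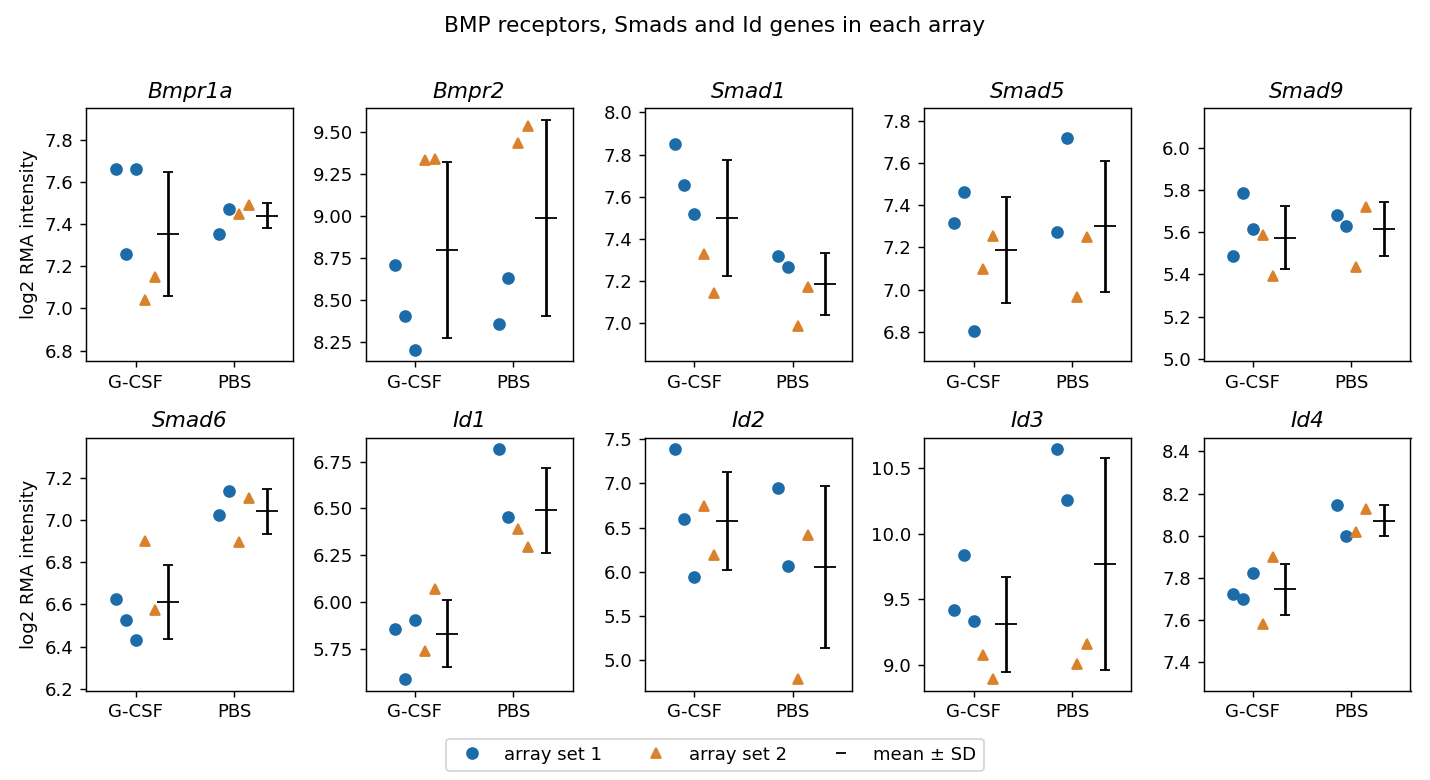
Each panel plots the log2 RMA intensity of 1 gene in the 5 G-CSF and 4 PBS arrays, on its own vertical scale. Circles are set 1, triangles are set 2, and bars are the mean ± SD. All G-CSF arrays lie below all PBS arrays for Id1 and Id4, while Bmpr2 and Id3 separate more by array set than by treatment.

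Because the Id genes and Smad6 are direct targets of BMP Smads, the 250 bases before their starts are shown, from RefSeq on GRCm38.p6. Of the 10 genes, 9 had an entry in the promoter table (11 windows) and Id1 did not. Capitals mark matches on either strand to GGCGCC, a GC-rich sequence bound by BMP Smads, and to GTCT, the short Smad box, whose matches on the other strand read AGAC. These motifs share no overlap. Windows run 5′ to 3′ on the strand of the gene, and the base before the start is the last.
Smad6, chr9:64022060-64022309, minus strand: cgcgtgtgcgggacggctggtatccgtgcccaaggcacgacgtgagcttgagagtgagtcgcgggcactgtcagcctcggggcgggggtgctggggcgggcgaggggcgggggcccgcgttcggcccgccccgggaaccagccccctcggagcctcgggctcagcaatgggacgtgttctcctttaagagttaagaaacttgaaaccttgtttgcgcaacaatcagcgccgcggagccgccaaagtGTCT
Id2, chr12:25096093-25096342, minus strand: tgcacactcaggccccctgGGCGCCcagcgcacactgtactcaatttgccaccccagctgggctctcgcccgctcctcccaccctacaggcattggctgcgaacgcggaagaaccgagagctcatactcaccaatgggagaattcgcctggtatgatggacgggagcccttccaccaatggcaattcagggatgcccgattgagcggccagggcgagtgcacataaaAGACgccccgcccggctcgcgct
Id3, chr4:136143572-136143821, plus strand: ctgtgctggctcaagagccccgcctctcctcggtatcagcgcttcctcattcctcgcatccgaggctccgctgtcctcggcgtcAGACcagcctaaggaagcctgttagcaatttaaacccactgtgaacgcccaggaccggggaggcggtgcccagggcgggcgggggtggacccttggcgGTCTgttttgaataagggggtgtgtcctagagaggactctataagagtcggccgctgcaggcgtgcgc
Id4, chr13:48260866-48261115, plus strand: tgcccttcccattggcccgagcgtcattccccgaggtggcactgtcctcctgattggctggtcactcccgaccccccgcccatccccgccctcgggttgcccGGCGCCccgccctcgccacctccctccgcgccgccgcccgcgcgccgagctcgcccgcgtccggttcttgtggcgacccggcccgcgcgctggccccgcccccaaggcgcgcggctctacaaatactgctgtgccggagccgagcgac

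GGCGCC was found in the windows of Id2 and Id4, at 231 and 148 bases before the start, and not in those of Smad6 and Id3. GTCT was found 2 times in Id3, 1 time each in Id2 and Smad6, and not in Id4. Over all members, 6 of 11 windows held GGCGCC and 7 held GTCT. Besides Id2 and Id4, GGCGCC was found in windows of Bmpr1a, Bmpr2, Smad5 and Smad9. Smad5 supplied several of the 11 windows. Those at chr13:56702760-56703009 and chr13:56702802-56703051 overlap and share a GTCT match, so the 11 are not separate promoters. Of 32851 promoter windows of the same length, 9.59% held GGCGCC and 82.9% held GTCT, and among the 9178 windows with at least 60% GC the shares were 26.1% and 75%. The GC content of the 11 member windows was 60% to 78.8%, against a median of 52.4% for all windows.

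Bmpr1a is the type I receptor kinase that passes the BMP signal to Smads. Its intensities were 7.66, 7.26, 7.66, 7.04 and 7.15 in G-CSF arrays and 7.35, 7.47, 7.45 and 7.49 in PBS arrays. The PBS arrays lay within the range of the G-CSF arrays. The change was -0.09 (95% interval -0.44 to 0.27, adjusted p = 0.975 in limma), so a fall by 0.44 is still inside the interval. It was 0.11 in set 1 and -0.38 in set 2, of opposite sign, and a test of treatment by set did not separate them (adjusted p = 0.864 in limma).

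Bmpr2, the type II receptor that activates the type I receptor, was at 8.70, 8.40, 8.20, 9.33 and 9.34 in G-CSF arrays and at 8.35, 8.63, 9.43 and 9.53 in PBS arrays. The high and low arrays were those of the array sets and not of the treatments. With both treatments weighted equally, set 2 exceeded set 1 by 0.95, beyond the 95th percentile of all probe sets (0.52). The treatment change was -0.19 (95% interval -0.85 to 0.47, adjusted p = 0.962), and it narrowed to -0.10 (95% interval -0.39 to 0.20, adjusted p = 0.851) with the array set as a block in limma. Within sets it was -0.06 (set 1) and -0.15 (set 2). With 1 array left out it ran from -0.40 (without PBS replicate 1) to -0.0087 (without PBS replicate 4).

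Smad1, Smad5 and Smad9 are the Smads that BMP receptors phosphorylate, and none of the 3 changed. Smad1 was at 7.85, 7.65, 7.52, 7.33 and 7.14 in G-CSF arrays and at 7.32, 7.27, 6.99 and 7.17 in PBS arrays. Most G-CSF arrays exceeded every PBS array, and G-CSF replicate 5 lay among them. The change was 0.31 (95% interval -0.05 to 0.67, adjusted p = 0.659), with 0.38 in set 1 and 0.16 in set 2, and it kept its sign in all 22 alternative settings. Smad5 was at 6.80 to 7.46 in G-CSF and 6.96 to 7.72 in PBS (change -0.11, 95% interval -0.51 to 0.29, adjusted p = 0.964). Smad9, whose protein is also known as Smad8, was at 5.39 to 5.79 in G-CSF and 5.43 to 5.72 in PBS (change -0.04, 95% interval -0.34 to 0.26, adjusted p = 0.983). For both genes the groups overlapped almost fully, and the sign turned when 1 array was left out (Smad5 at 0.025 without PBS replicate 2, Smad9 at 0.0035 without G-CSF replicate 5). Within sets 1 and 2, Smad5 was at -0.30 and 0.07, and Smad9 at -0.03 and -0.09.

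Smad6, the inhibitory Smad that BMP signalling induces and that blocks the activating Smads, was lower in the G-CSF group. Its intensities were 6.62, 6.53, 6.43, 6.90 and 6.58 in G-CSF arrays and 7.02, 7.14, 6.90 and 7.11 in PBS arrays. Only G-CSF replicate 4 reached the range of the PBS arrays, where it equalled PBS replicate 3 to the second decimal. The means were 6.61 ± 0.18 in G-CSF and 7.04 ± 0.11 in PBS (SD, n = 5 and 4). The change was -0.43 (SE 0.14, 95% interval -0.74 to -0.12), with an unadjusted p of 0.00974 and an adjusted p of 0.234 in limma, so it did not pass over all probe sets. It was -0.55 in set 1 and -0.26 in set 2, and its sign was the same in all 22 alternative settings, none of which brought it past the threshold.

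Id1, an Id protein gene that BMPs induce in many cell types, had the smallest p of the 10. Its intensities were 5.85, 5.59, 5.90, 5.74 and 6.07 in G-CSF arrays and 6.82, 6.45, 6.39 and 6.29 in PBS arrays. The highest G-CSF array was below the lowest PBS array. The means were 5.83 ± 0.18 in G-CSF and 6.49 ± 0.23 in PBS (SD, n = 5 and 4), 1.58-fold lower after G-CSF. The change was -0.66 (SE 0.16, 95% interval -0.997 to -0.32), with an adjusted p of 0.0618 in limma, and Id1 ranked 402 of 21789 probe sets by p.

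The Id1 result lay close to the threshold, and the side it fell on depended on the setting. It was past the threshold in 5 of 22 alternative settings. The array set as a block gave an adjusted p of 0.0362 in limma. This value may be too small, because the sets were drawn from the tested values. The others were a further quantile normalisation (0.0449), array weights (0.0469), a pseudocount of 16 (0.0470) and the brighter probe sets only (0.0471). With 1 array left out the change was -0.72 to -0.55 and the adjusted p 0.0747 to 0.179, the highest without PBS replicate 1. Within sets it was -0.85 (set 1) and -0.44 (set 2). The CAR cell, erythroid, B cell and osteoblast marker sums given above separated the groups in the same direction as Id1, and the smooth muscle and pericyte sum in the opposite one. The osteoblast sum rested mostly on Ibsp, while Col1a1 of that list rose. The neutrophil sum of every G-CSF array also exceeded those of PBS replicates 1, 3 and 4, though not always that of PBS replicate 2. The part of these marker lists in the result was not tested.

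Id4, the remaining Id gene with lower values after G-CSF and no overlap, was at 7.72, 7.70, 7.82, 7.58 and 7.90 in G-CSF arrays and at 8.15, 8.0, 8.02 and 8.13 in PBS arrays. All G-CSF arrays lay below the PBS arrays. The change was -0.33 (SE 0.13, 95% interval -0.61 to -0.05), with an unadjusted p of 0.0262 and an adjusted p of 0.401 in limma, which did not pass. It was -0.32 in set 1 and -0.33 in set 2, and -0.36 to -0.29 with 1 array left out.

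Id3, another Id target of BMP Smads, was at 9.42, 9.84, 9.33, 9.07 and 8.89 in G-CSF arrays and at 10.64, 10.26, 9.01 and 9.16 in PBS arrays. Both PBS arrays of set 1 stood above every other array, and the PBS arrays of set 2 lay among the G-CSF arrays. The change was -0.46 (95% interval -1.16 to 0.25, adjusted p = 0.814). Within set 1 the means were 9.53 in G-CSF and 10.45 in PBS (change -0.92), and within set 2 they were 8.98 in G-CSF and 9.09 in PBS (change -0.10). The test of treatment by set gave a difference of 0.82 (SE 0.30) with an unadjusted p of 0.0219 and an adjusted p of 0.864 in limma. It was added after the data were seen, and it called 0 of 21789 probe sets, with 1234 at an unadjusted p under 0.05. Over both treatments Id3 was lower in set 2 than in set 1 by a difference of -0.96, below the 5th percentile of all probe sets (-0.68). With the set as a block the change was -0.55 (95% interval -0.96 to -0.14, adjusted p = 0.20). That interval may be too narrow, because the sets were drawn from the tested values.

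Id2, the Id gene also known for its role in lymphoid cells, ran the other way and varied most. It was at 7.38, 6.60, 5.94, 6.74 and 6.19 in G-CSF arrays and at 6.95, 6.06, 4.79 and 6.42 in PBS arrays. The groups overlapped, and PBS replicate 3 was the lowest of all 9 arrays. The change was 0.52 (95% interval -0.33 to 1.36, adjusted p = 0.831), and without PBS replicate 3 it was 0.09. The value within set 2, which holds that array, was 0.86, and within set 1 it was 0.13.

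**Figure D2:**
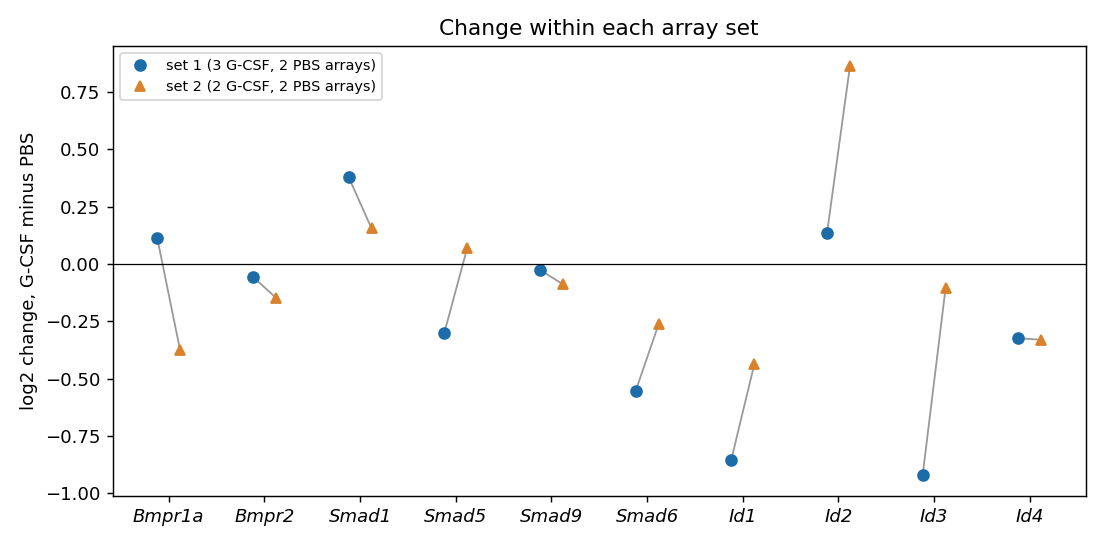
The plot gives the log2 change, G-CSF minus PBS, of each gene within array set 1 (circles) and array set 2 (triangles), with no error bars because a set holds 2 or 3 arrays a group. Id4 has the same change in both sets to within 0.01, Id3 and Id2 differ most between them, and Bmpr1a and Smad5 take opposite signs.

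Across the 10 genes, the sign matched between the sets for 8, with Bmpr1a and Smad5 as the exceptions. In the reported fit a 2-fold fall (a change of -1) lay outside the 95% interval of 9 genes, all but Id3. For Id1 it did so only narrowly, with a lower bound of -0.997. A 2-fold rise lay outside the interval of 9 genes, all but Id2. These intervals describe array intensities. Smad9 (5.57 in G-CSF, 5.62 in PBS) and Id1 (5.83 and 6.49) lay not far above the array medians of tested probe sets (5.36 to 5.48). How fully a fall of the transcript would show at such levels was not tested.

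Of 14 BMP ligands measured, 2 fell and 0 rose, with a list median of -0.02. Bmp4 averaged 6.99 ± 0.20 in G-CSF and 9.59 ± 0.21 in PBS (SD, n = 5 and 4), a change of -2.60 (adjusted p = 4.84e-06 in limma). Bmp6 averaged 9.02 ± 0.21 in G-CSF and 9.99 ± 0.24 in PBS (change -0.97, adjusted p = 0.00975). Within sets 1 and 2 the changes were -2.52 and -2.68 for Bmp4, and -1.07 and -0.83 for Bmp6. The Bmp6 call was lost with the replicate number as a block and within either set (adjusted p = 0.0636, 0.0740 and 0.307). With the array set as a block Bmp5 was also called lower (-0.54, adjusted p = 0.0489). This p may be too small, because the sets were drawn from the tested values. In the reported fit Bmp5 was not called (-0.56, adjusted p = 0.113 in limma). BMPs can bind the receptors described above and other receptors given below. Which of them Bmp4 and Bmp6 use in these cells was not tested.

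Of 14 secreted BMP antagonists, 3 fell and 0 rose, with a list median of 0.003. They were Chrdl1, a chordin-like binder of BMPs (change -2.56), Fst (follistatin), which binds activins and BMPs (-1.57, adjusted p = 0.0111), and Grem1, gremlin (-0.87, adjusted p = 0.0235). Grem1 lost its call when PBS replicate 1, 2 or 4 or G-CSF replicate 1 was left out (adjusted p = 0.0607, 0.0707, 0.0738 and 0.0655). It was also lost with all probe sets tested (0.0781), with the replicate block (0.0567) and within set 1 or 2 (0.0836 and 0.414). Fst lost its call with all probe sets tested (0.0577) and within set 2 (0.0715). Within sets 1 and 2 the changes were -2.52 and -2.64 for Chrdl1, -1.87 and -1.37 for Fst, and -1.03 and -0.63 for Grem1. With the array set as a block, 2 antagonists were called higher that were not in the reported fit, Nog (noggin, 0.84, adjusted p = 0.0254) and Nbl1 (0.62, adjusted p = 0.0280). These block p-values may be too small, as for Bmp5. In the reported fit the adjusted p in limma was 0.274 for Nog and 0.431 for Nbl1.

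Of 10 other BMP receptors and co-receptors, 1 fell and 0 rose, with a list median of -0.06. It was Acvr2a, a type II receptor shared by activins and BMPs, at 7.41 ± 0.21 in G-CSF and 8.52 ± 0.21 in PBS (change -1.11, SE 0.16, adjusted p = 0.00315), with -1.09 in set 1 and -1.13 in set 2, where it was not called (adjusted p = 0.215). The change of Acvr2a was larger in size than that of Bmpr2, the other type II receptor named here, and the difference between the 2 genes was not tested.

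Inside the cell, 0 of 16 regulators of BMP Smads changed in limma, with 1 lower and 1 higher at an unadjusted p under 0.05 and a list median of -0.07. The 2 with the smallest p were Skil, a corepressor of Smads (0.52, adjusted p = 0.181), and Nedd4l, a ubiquitin ligase (-0.65, adjusted p = 0.232). Of 6 basic helix-loop-helix genes that encode partners or related targets of Id proteins, 0 changed, with 1 lower and 1 higher at an unadjusted p under 0.05 and a list median of -0.08. Tcf12, an E protein held by Id proteins, was at -0.31 (adjusted p = 0.445), and Twist2 was at 0.50 (adjusted p = 0.516). Of 11 other BMP target genes, 0 changed, with 2 lower and 0 higher at an unadjusted p under 0.05 and a list median of 0.02. These were Sp7, an osteoblast transcription factor (-0.47, adjusted p = 0.365), and Atoh8 (-0.40, adjusted p = 0.507). The targets outside the Id family and Smad6 included no called gene either.

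**Figure D3:**
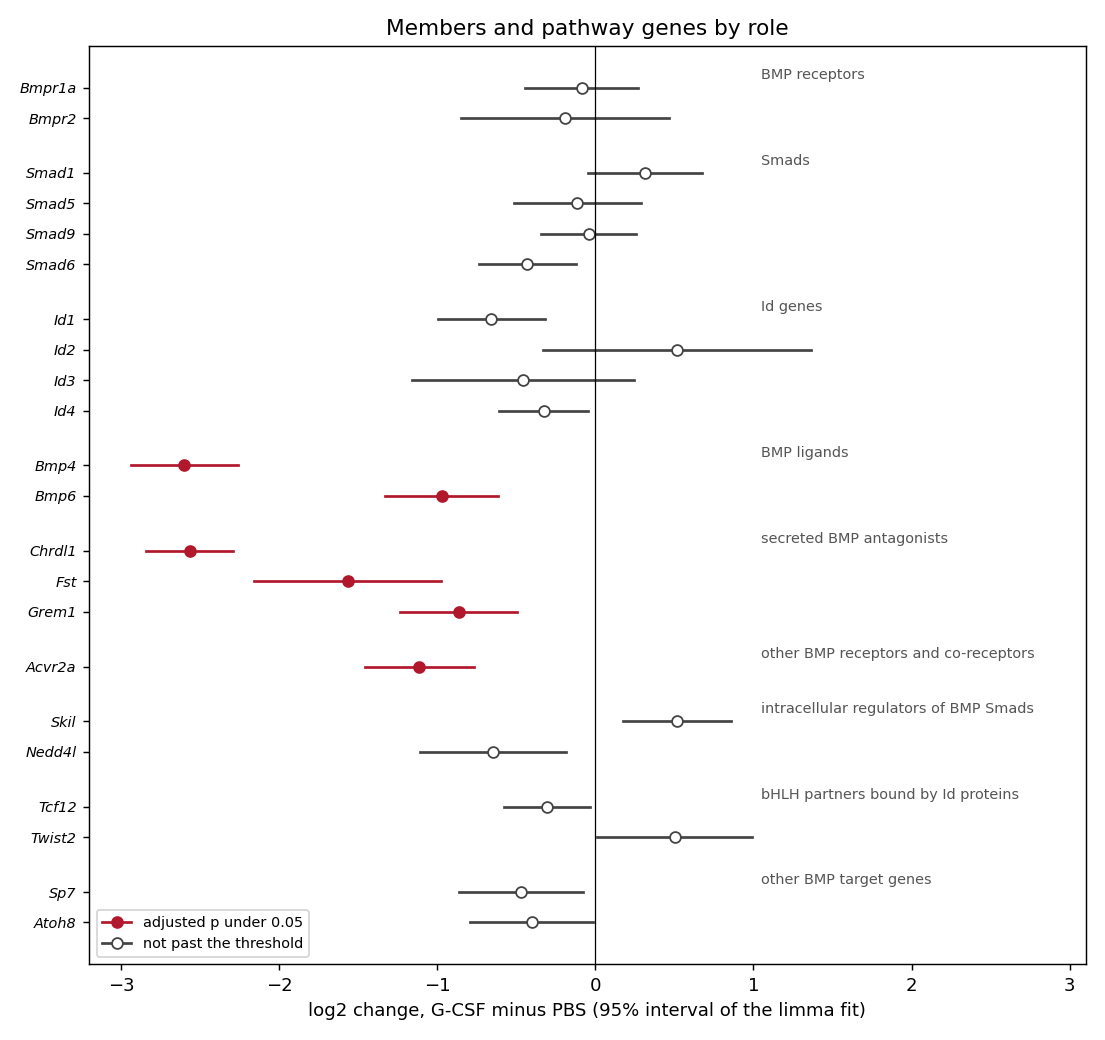
Points give the log2 change, G-CSF minus PBS, and lines its 95% interval in the limma fit, for the 10 genes and for the named genes of the pathway lists. Filled red points passed an adjusted p of 0.05, which Bmp4, Bmp6, Chrdl1, Fst, Grem1 and Acvr2a did, and open points did not.

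The profiles most like those of Id1 and Smad6, the members with the smallest p, were found by the root mean square difference between centred log2 profiles over the 9 arrays. Nearest to Id1 were Sh2d4a (difference 0.11) and Cebpa, a transcription factor of adipocyte and myeloid differentiation (0.13), against a median of 0.46 over all probe sets. Sh2d4a and Cebpa fell after G-CSF, by 0.66 and 0.77 on the log2 scale (adjusted p = 0.0349 and 0.0143 in limma). Nearest to Smad6 were Rtl8c (0.08) and Nol4l (0.09), against a median of 0.36, and neither changed (-0.35 and -0.28, adjusted p = 0.445 and 0.555). The likeness rests on few arrays and includes the treatment difference itself.

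**Figure D4:**
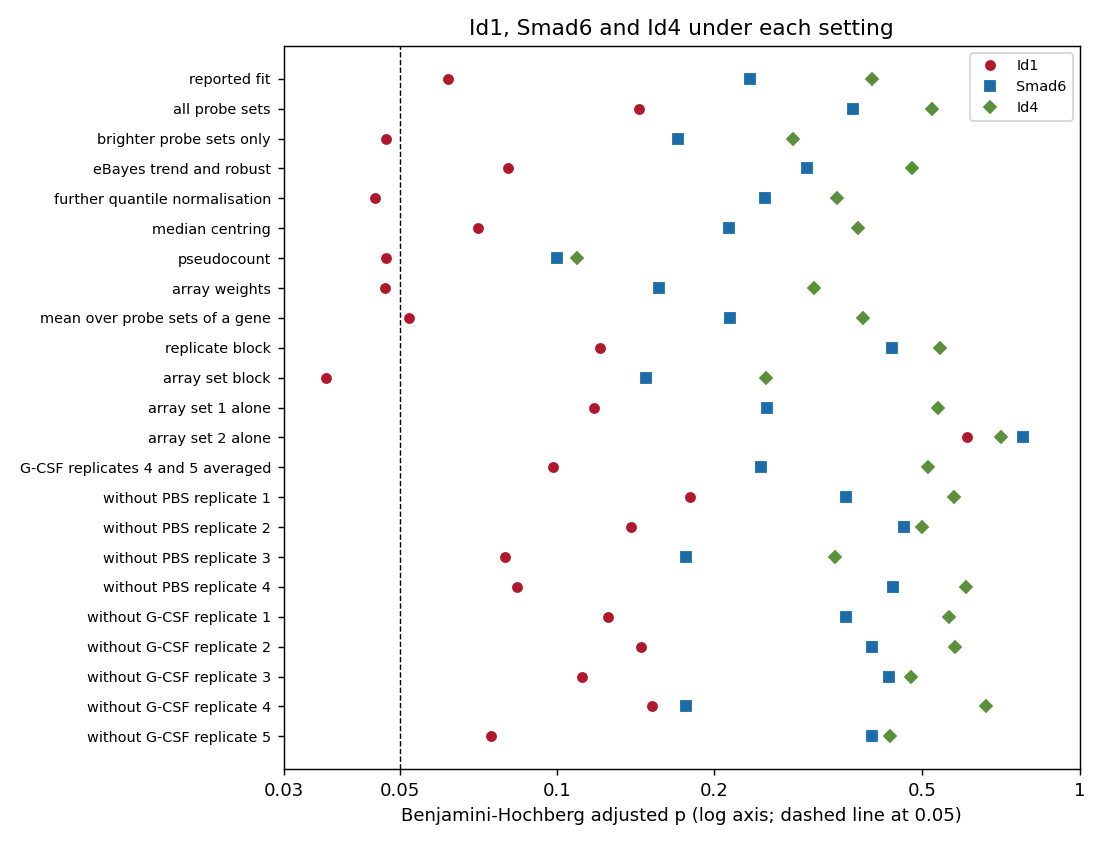
The plot gives the adjusted p (log axis) of Id1, Smad6 and Id4 in the reported fit and in each of 22 alternative settings, with a dashed line at 0.05. Id1 lies left of the line in 5 of the alternatives, and Smad6 and Id4 in none.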

How the data were processed

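Per the submitters' processing notes, the authors used RMA and Affymetrix Expression Console, and the deposited intensity values are on a linear scale. RMA corrects the background, normalises between arrays and summarises each probe set. The normalisation aligns arrays with each other, so changes are relative to other transcripts, and the deposited intensities ran from 1.73 to 15673.1. Their distributions still differed, with array medians of 34.72 (PBS replicate 1) to 37.24 (PBS replicate 3). The interquartile range of log2 values was 2.79 to 2.99 in set 1 and 2.45 to 2.76 in set 2, lowest in PBS replicate 3. Versions and library files are not given in the sources used here. Precision is limited by the number of arrays. Of 35553 probe sets, 21789 with 1 symbol in the platform annotation were tested, 1621 had several symbols and 12143 had none listed. Gene identifiers of 21698 matched a RefSeq gene table of GRCm38.p6. The design had foreseen log2 values, so log2 was taken here first. limma 3.58.1 (lmFit, eBayes) in R 4.3.3 compared 5 G-CSF with 4 PBS arrays, two-sided, without covariates, with Benjamini-Hochberg adjustment over all probe sets tested. The steps were tested on simulated data. For a gene with several probe sets the one with the highest mean was used.

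The members, lists, alternatives and naming rule were chosen with earlier results of these data known. The rule named all 10 members, the called genes of each pathway list or else the 2 with the smallest p, and the 2 nearest profiles of the leading members. Alternatives were all or brighter probe sets, trend and robust eBayes, quantile normalisation, median centring, a pseudocount of 16, array weights, a mean over probe sets, a replicate block, the array sets as a block and alone, G-CSF replicates 4 and 5 averaged, and each array left out. Replicates 4 and 5 of G-CSF were the closest pair of a group (SD of their log2 differences 0.28, against 0.37 to 0.67 for the others), and their values differed.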

Additional observations from a re-analysis of the deposited data

How the results depend on the processing

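Of 220 values of the 10 genes in 22 alternative settings, 209 kept their sign and their side of the threshold. Id1 moved past it in 5, so that 1 gene was called lower with the brighter probe sets (change -0.66), a further quantile normalisation (-0.65), a pseudocount of 16 (-0.54), array weights (-0.67) and the array set block (-0.66). The sign turned, never with a call, for Bmpr1a in set 1 alone (0.11), Bmpr2 with array weights (0.046), Smad5 in set 2 alone (0.070), and Smad9 with the replicate block (0.0035). With 1 array left out, Smad5 ran from -0.23 to 0.025 and Smad9 from -0.10 to 0.0035.

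Of the pathway genes, 6 fell in the reported fit, 5 to 6 with 1 array left out, 4 with all probe sets (Fst and Grem1 lost), 4 in set 1 alone (Bmp6 and Grem1 lost) and 2 in set 2 alone (Bmp4 and Chrdl1 kept). With the array set block 7 fell, Bmp5 being added, and 2 rose (Nog and Nbl1), in a fit whose p-values may be too small. Over all probe sets, 162 rose and 191 fell, and with 1 array left out 105 to 156 rose and 105 to 195 fell. Risen and fallen were 87 and 94 among all probe sets, 287 and 311 with the array set block, 72 and 130 in set 1 alone, and 37 and 22 in set 2 alone. Counts changed with the arrays or probe sets that entered and with the blocks in the model, and other causes were not tested. The labels do not state whether replicate numbers pair the arrays. Same-numbered arrays deviated together for numbers 1, 2 and 4 (r = 0.28, 0.14 and 0.35) and not for 3 (-0.28). These correlations were positive within an array set and negative between sets whatever the number, so they cannot decide whether arrays were paired. With the replicate block 85 rose and 95 fell, no gene of the 10 was called, Id1 was at -0.72 (adjusted p = 0.121 in limma) and the calls of Bmp6 and Grem1 were lost. The number of arrays, the array sets and PBS replicate 3 limit what these data can show.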
